A study of Rattus norvegicus with 8 samples.

Results

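The genes described here are the cytochrome P450s measured on a rat oligonucleotide array hybridised with RNA of the medial collateral ligament, a ligament of the knee. They were chosen by name alone: a probe set was taken where the probe table of the array gives it a single gene symbol that starts with Cyp and a digit. This gave 84 probe sets for 49 genes, out of 8799 probe sets of which 59 are array controls. A further 13 probe sets carry several symbols with a P450 among them and were not taken. The 8 arrays form 4 groups of 2, all from ligaments taken at 3 weeks. Loaded control rats had a sham operation and loaded healing rats had the ligament disrupted on both sides, with no unloading stated for either. Unloaded control rats were suspended by the tail, which takes weight off the hind limbs, and had no sham operation. Unloaded healing rats had the ligament disrupted on both sides and were suspended from 24 h after surgery. Between the control groups, unloading and the missing sham operation therefore cannot be told apart. Nothing in the labels tells separate animals from pools or repeat arrays within a group, so p-values measure only the spread between arrays, which may be technical, and with 2 arrays per group the precision is low.

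Cytochrome P450s are heme-containing monooxygenases that put an oxygen atom into small lipophilic molecules, with electrons supplied by P450 reductase in the endoplasmic reticulum or by a ferredoxin in mitochondria. Many enzymes of the CYP1, CYP2 and CYP3 families oxidise drugs and steroids and are most abundant in liver, where several differ between male and female rats. The CYP4 family hydroxylates fatty acids, and other families make or clear steroid hormones, bile acids, cholesterol, vitamin D and retinoic acid. A class called liver-type here was set by name as Cyp1a2, Cyp2a1, Cyp2a2, the Cyp2b, Cyp2c, Cyp2d, Cyp3a and Cyp4a subfamilies, Cyp2e1 and Cyp7a1. Whole subfamilies were taken, most of them best known from liver, so the class also holds members known from other tissues, such as Cyp2c23 and Cyp4a8 of kidney, Cyp2d4 of brain and Cyp2b12 and Cyp2b15 of skin. The class accounts for 48 probe sets of 26 genes, and the other P450s for 36 probe sets of 23 genes.

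Before any P450 was considered, both arrays of the unloaded control group differed from the other 6. Their 99th percentile of signal was 5494 and 5584, against 9218 to 11289, and their median signal was 313.6 and 315.9, against 238.7 to 286.2. The ratio of 5′ to 3′ signal for actin, a sign of RNA integrity, was 0.634 and 0.964 on the unloaded controls and 0.237 to 0.529 on the others. Its part in the results below was not tested. Of 15 probe sets for 7 tendon and ligament fibroblast marker genes, 13 fell between loaded and unloaded controls in the limma test described below (3.44% of all probe sets fell). The summed signal of these markers was 9264 to 9629 on the unloaded controls, 117898 to 141182 on the loaded controls, 120661 to 144457 with loaded healing and 65015 to 85725 with unloaded healing. Skeletal muscle markers (5 probe sets, 2 of which fell) had a median log2 difference of -1.29 between unloaded and loaded controls, and endothelium markers (10 probe sets, 0 called, 8 above 0) one of 0.67. In bulk tissue, fewer cells of a type and less RNA per cell cannot be told apart.

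A set of probe sets of the liver-type class gave signal above background on every ligament array. The table holds no detection call, so a probe set was counted as above background on an array when it exceeded the 60th percentile of the non-control probe sets there, a bound of 351.3 to 431.7 signal units. By this rule 17 P450 probe sets were above background on all 8 arrays (20.2%, with 18.9% of all probe sets), 38 on 1 to 7 arrays (45.2%, with 45.5%) and 29 on none (34.5%, with 35.6%). The shares for P450s were thus close to those of the whole array. All 17 were in the liver-type class, from 13 genes that include Cyp2c23, Cyp2d4, Cyp2b15 and Cyp4a8, and 0 of the 36 probe sets of other P450s were among them. With both unloaded controls left out, a check added after the data were seen, 18 were above background on the remaining 6 arrays.

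**Figure D1:**
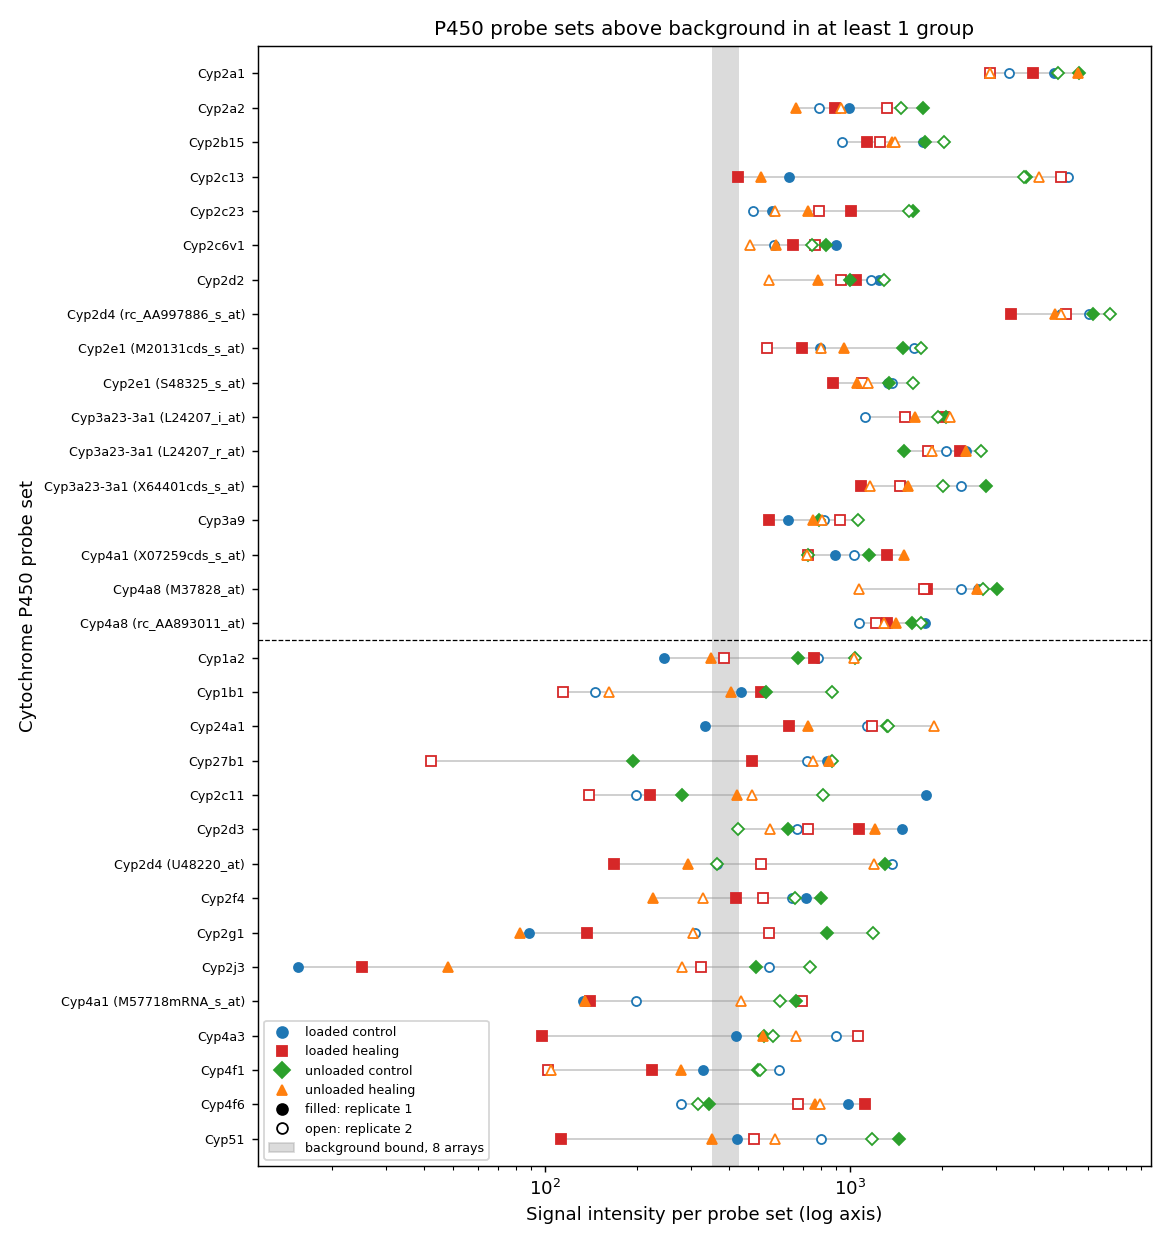
Signal intensity (log axis) of the 32 P450 probe sets above background on both arrays of at least 1 group, with 1 row per probe set, a point for each of the 8 arrays and a grey band for the range of the background bound. The 17 rows over the dashed line were above the bound on all 8 arrays, and in 14 of them the highest array read less than 3 times the lowest. The bound itself limits how low their lowest array can be.

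Most of these 17 varied little between arrays. In 14 the highest array read less than 3 times the lowest, against 8 of the other 67 P450 probe sets. That contrast follows in part from the rule, which keeps low readings out of the 17 and leaves the dim probe sets among the 67. It is therefore not read as a trait of these P450s. Cyp2d4, a drug-oxidising enzyme, read 4927.7 and 6059.7 on the loaded controls, 3358.3 and 5098.8 with loaded healing, 6256.8 and 7104.5 on the unloaded controls and 4693.6 and 4899.1 with unloaded healing on 1 of its 2 probe sets. The unloaded controls were the highest pair and a loaded healing array was the lowest. Cyp2a1, a steroid hydroxylase of liver, read 4644.6 and 3324.4 on the loaded controls, 3972.6 and 2869.5 with loaded healing, 5621.6 and 4800.3 on the unloaded controls and 5582.4 and 2864.1 with unloaded healing. The unloaded controls lay above both loaded groups, and unloaded healing spanned nearly the whole range. Cyp3a23-3a1, the steroid-inducible CYP3A enzyme, had 3 of its 4 probe sets in this set, the lowest at 1085.6 and the highest at 2780.8. Cyp4a8, a fatty acid hydroxylase, had both of its probe sets there, at 1068.7 to 3023 and 1070.2 to 1763.4. The ethanol-inducible Cyp2e1 had 2 of 3, at 532.8 to 1704 and 881.1 to 1612. The remaining genes were Cyp2a2, Cyp2b15, Cyp2c13, Cyp2c23, Cyp2c6v1, Cyp2d2, Cyp3a9 and Cyp4a1, with 1 probe set each.

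Transcripts that define hepatocytes were above background on all 8 arrays for 1 of 20 probe sets, from 8 marker genes (18.9% of all probe sets were). On single arrays 3 to 9 of the 20 were, where the bound places 40% of all probe sets above it. The one above on all 8 was a probe set of the antitrypsin gene Serpina1 at 1208.3 and 704.9 on the loaded controls and 1143.1 and 1154.1 on the unloaded controls. Another Serpina1 probe set read 17.2 and 50.4 and 46 and 51.1 there. Alb, which encodes serum albumin, ranged between its probe sets, from 18.3 and 35.4 on the loaded and 49.2 and 51.6 on the unloaded controls to 286.7 and 446.6 and 444.8 and 610.7. Between unloaded and loaded controls the hepatocyte markers had a median difference of 0.36, with 16 of 20 above 0 and 0 called. No marker was listed at 0. The summed hepatocyte signal was 5156 to 6774 on the loaded controls, 4828 to 5273 with loaded healing, 6060 to 8160 on the unloaded controls and 3750 to 7890 with unloaded healing. The unloaded controls lay above loaded healing and overlapped the loaded controls and unloaded healing. In a wider list of liver transcripts other than P450s, 7 of 103 probe sets were above background on all 8 arrays. The part of liver RNA, or of cross-reaction between probes, in the P450 signals was not tested.

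Probe sets of the same gene often disagreed on whether it was above background. Of the 49 genes, 21 had more than 1 probe set. In 13 of these no probe set was above background on all 8 arrays, in 1 (Cyp4a8) every probe set was, and in 7 some were and some were not. For Cyp2e1 and Cyp2c6v1 the split was complete, with a probe set above background on all 8 arrays and another on none. The third Cyp2e1 probe set read 43.5 to 336.6. Cyp2c6v1, a constitutive liver enzyme, read 469.4 to 900.6 on 1 probe set and 21 to 308.5 on the other. Names ending in _s_at or _f_at mark probe sets that can detect several similar transcripts on this type of array, and they made up 10 of the 17 and 40 of the other 67. The rat Cyp2b, Cyp2c, Cyp2d, Cyp3a and Cyp4a genes are close paralogs, so which gene gave a signal in these subfamilies is uncertain.

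By group, 23 P450 probe sets were above background on both arrays of the loaded controls (27.4%, with 31.6% of all probe sets), 21 with loaded healing (25%, with 32%), 27 on the unloaded controls (32.1%, with 32.6%) and 24 with unloaded healing (28.6%, with 31%). At least 1 group qualified for 32 (38.1%, with 45.6%), of which 15 lay outside the 17 above. Single arrays had 29 to 35.

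These 15 included P450s with roles outside liver. Cyp24a1, the mitochondrial enzyme that breaks down active vitamin D, read 333.1 and 1132.4 on the loaded controls, 629 and 1176.7 with loaded healing, 1317.7 and 1331.1 on the unloaded controls and 724.5 and 1886.1 with unloaded healing on 1 of its 2 probe sets. It was above background on 7 arrays, all but the first loaded control. Cyp27b1, which makes active vitamin D, read 838.4 and 722.6 on the loaded controls, 475.3 and 42.2 with loaded healing, 193.8 and 871.6 on the unloaded controls and 849.6 and 754.5 with unloaded healing. Loaded healing and the unloaded controls each paired a low array with a higher one. Cyp1b1, an enzyme of many tissues that is induced through the Ah receptor, had 4 probe sets, none above background on all 8 arrays. The one most often above background read 438.2 and 146.1 on the loaded controls, 509.2 and 113.9 with loaded healing, 527.6 and 872.6 on the unloaded controls and 405.3 and 161.7 with unloaded healing. Both unloaded controls exceeded the other 6 arrays there. This probe set met the rule on both arrays only in the unloaded controls, so their high signal follows in part from the selection. The 527.6 on the first unloaded control lay below the highest Bacillus control of that array, at 675.4. Cyp51, the lanosterol demethylase of cholesterol synthesis, had 5 probe sets, of which 1 was above background on 7 arrays, at 423.8 and 800.5 on the loaded controls, 112.6 and 482 with loaded healing, 1441.1 and 1178 on the unloaded controls and 352.7 and 565.9 with unloaded healing. The unloaded controls were again the highest pair. Also among the 15 were Cyp4f1 and Cyp4f6, of a subfamily that inactivates leukotrienes, Cyp2f4, a lung P450, Cyp2g1, an olfactory P450, and Cyp2j3, an arachidonic acid epoxygenase. The liver-type ones were Cyp1a2, Cyp2c11, Cyp2d3, Cyp4a3 and a second probe set each of Cyp2d4 and Cyp4a1. Cyp4f1, Cyp2g1, Cyp2j3, Cyp1a2 and this Cyp4a1 probe set also met the rule on both arrays only in the unloaded controls. The highest Bacillus control there read 675.4 and 642.9. Cyp4f1 (496.8 and 506.6) and this Cyp4a1 probe set (663.7 and 588.9) lay below it on both arrays. Cyp2j3 lay below it on the first, at 489.9, and Cyp1a2 equalled it there. Cyp2g1 lay above it on both, at 837.2 and 1190.3.

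Steroid hormone enzymes were above background on few arrays. The probe sets for Cyp11a1, which starts steroid synthesis, Cyp11b2, Cyp17a1, Cyp21a1 and Cyp19a1, the aromatase, read between 63.2 and 605.3. Of the 5, 0 were above background on all 8 arrays and 2 on none (18.9% and 35.6% of all probe sets). Cyp11a1 was above it on 2 arrays, and Cyp21a1 and Cyp19a1 on 1 each. Of 10 probe sets for the sterol and bile acid enzymes Cyp7a1, Cyp7b1, Cyp27a1 and Cyp51, 0 were above on all 8 and 4 on none. Cyp7a1, the rate-limiting enzyme of bile acid synthesis, was on none with either probe set, at 71.1 to 274.3 and 5.6 to 177.9. Of 12 CYP4 probe sets 3 were above on all 8 arrays, all of the Cyp4a subfamily, while Cyp4b1, a lung P450, was on none at 43.2 to 87.5. Families 1 to 3 had 14 of 53 probe sets above on all 8 arrays and 19 on none. The counts on none lay near the share of the whole array in most of these sets, so they are not read as traits of the families.

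Whether dim liver-type transcripts rose together on the unloaded control arrays was examined as a check on scaling. The deposited values have nearly the same trimmed mean on each array, 500.3 to 500.6, although the brightest probe sets of the unloaded controls read far lower. Differences are on the log2(signal + 45.8) scale. The median difference between unloaded and loaded controls was 0.25 over the 84 P450 probe sets and 0.24 over all 8740 non-control probe sets. It was 0.25 for the 48 liver-type and 0.33 for the 36 other P450 probe sets. Between replicates the median had a standard deviation of 0.26 log2 units for the liver-type class and 0.1 for all P450s. The fitted difference was above 0 for 62 P450 probe sets (73.8%, with 66.9% of all), above 1 for 14 (16.7%, with 11.9%) and below -1 for 3 (3.57%, with 7.61%). Both unloaded controls exceeded both loaded controls for 26 (31%, with 34.2%) and lay below both for 9 (10.7%, with 13.5%). The P450s therefore read higher on the unloaded controls by about the amount seen over the whole array.

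Among dim probe sets the liver-type P450s shifted by about as much as the rest, and among the brightest by more. Dimness was taken from the 4 healing arrays, which the difference between controls does not use, and the lower 3 quintiles of their mean log2 signal held 56 P450 probe sets. The median difference of these was 0.28, against 0.29 over all 5244 probe sets of those quintiles. For the 25 dim liver-type probe sets it was 0.24, with 20 (80%) above 0, against 70.5% of all dim probe sets. Their median signal was 119.8 and 144.1 on the loaded controls and 188.1 and 140.2 on the unloaded controls, so the groups overlapped. The 31 other dim P450 probe sets had a median difference of 0.43. In the brightest quintile the median was 0.07 over all 1748 probe sets, of which 276 fell and 11 rose in the limma test, and 0.34 over 17 liver-type P450 probe sets, 13 of them above 0 and 1 called. The summed signal of all liver-type P450 probe sets was 47813 to 48132 on the unloaded controls, 38391 to 40575 on the loaded controls, 31187 to 37303 with loaded healing and 35290 to 35521 with unloaded healing. Bright probe sets weigh most in such a sum. By median signal the class read 502.2 and 397.5 on the unloaded controls and 357.3 and 304.7 on the loaded controls. The second array of loaded healing (416.5) and of unloaded healing (409.1) lay between the unloaded controls.

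**Figure D2:**
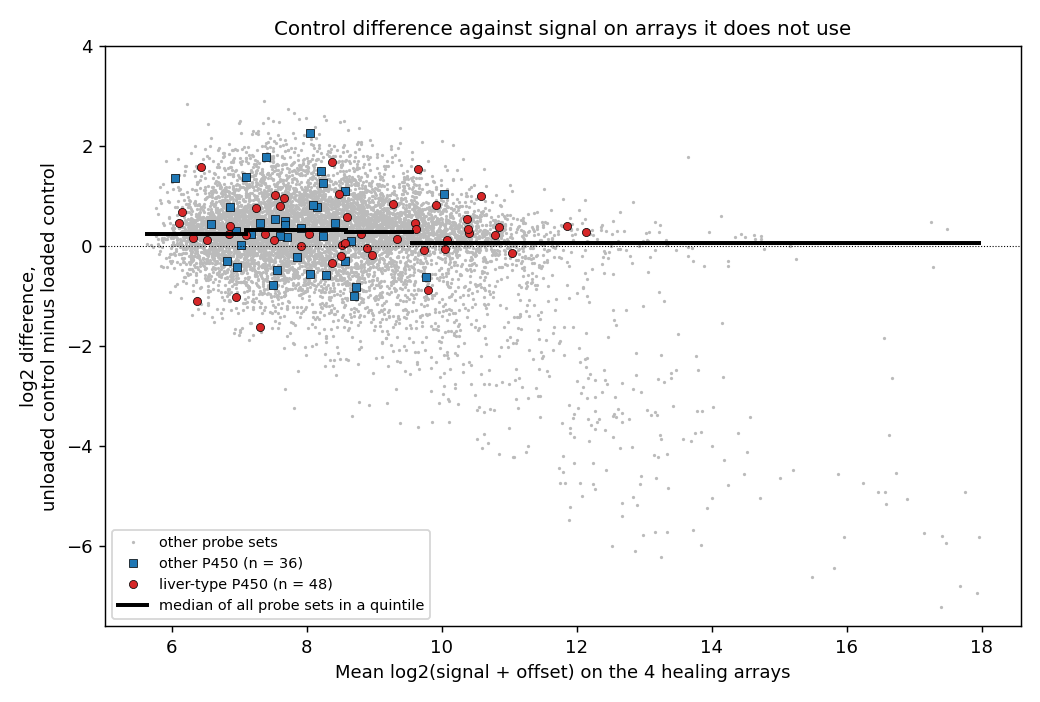
Difference between unloaded and loaded controls (log2, y axis) against mean log2(signal + 45.8) on the 4 healing arrays (x axis) for liver-type P450 probe sets, other P450 probe sets and all remaining probe sets, with the median of all probe sets in each quintile. The medians lie between 0.25 and 0.32 in the lower 4 quintiles and at 0.07 in the brightest, and the liver-type P450s of the brightest quintile have a median of 0.34.

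The shift moved with the scaling. When each array was centred on its median, the median difference was 0.01 for P450s and 0.00 for liver-type P450s, with 0.00 over all probe sets. This setting gives every array the same median, which brings the median difference of all probe sets close to 0. Quantile normalization gave 0.17 for P450s and 0.20 for liver-type P450s with 0.09 over all probe sets, and -0.01 for the dim liver-type probe sets, of which 11 of 25 were above 0. Under the same normalization the 17 liver-type probe sets of the brightest quintile had a median of 0.63, with 14 above 0 and 3 called higher. Over all 1748 probe sets there the median was 0.16, with 58.3% above 0, 147 called higher and 293 lower. Median centring gave 0.09 for the 17 liver-type probe sets, against -0.17 over all of that quintile. Scaling to spike-in controls gave 0.34 and 0.33 with 0.32 over all. Leaving out an array moved the P450 median to between 0.15, without the first loaded control, and 0.38, without the second. By rank, the median P450 probe set stood at percentile 49.5 to 52.4 of its array on the unloaded controls and 46.1 to 51.1 on the other 6. For 22 array controls for bacterial, yeast and mouse transcripts, examined after the data were seen, the median difference was 0.40, with 18 above 0. Their median signal was 41.8 and 130 on the loaded controls, 47.3 and 109.7 with loaded healing, 117.7 and 134.2 on the unloaded controls and 80 and 163.8 with unloaded healing. The second loaded control lay between the unloaded controls and the second unloaded healing array above both, so higher medians were not particular to the unloaded controls. The highest of the 15 Bacillus controls among them did set the unloaded controls apart. It read 675.4 and 642.9 there and 181 to 497.3 on the other 6 arrays.

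**Figure D3:**
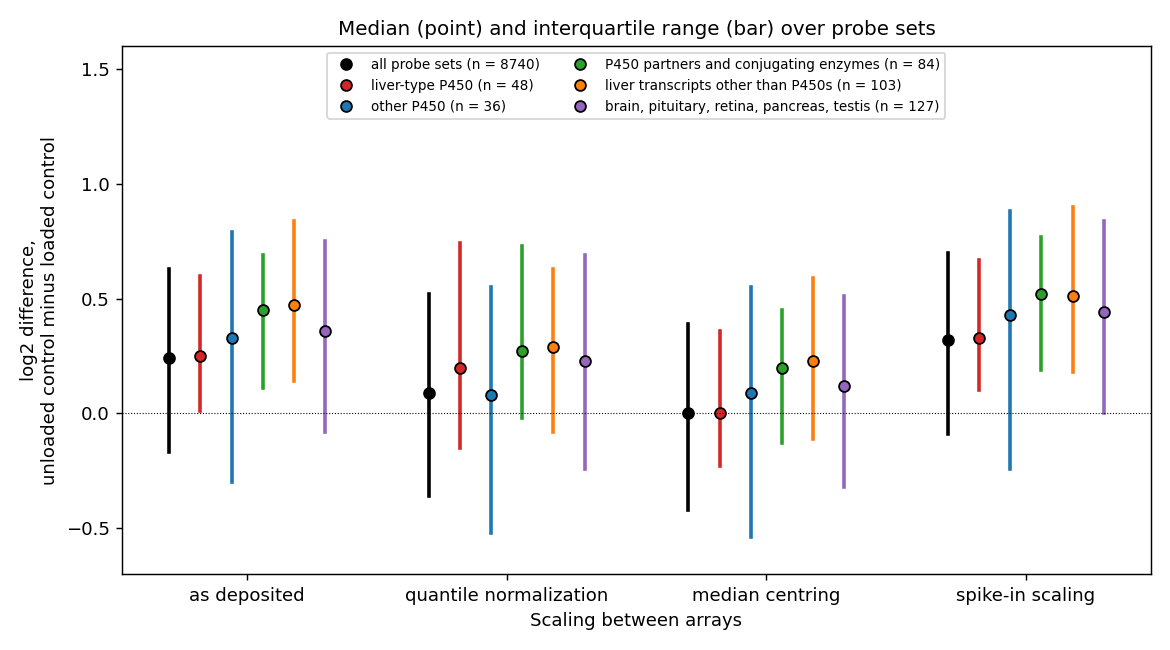
Median (point) and interquartile range (bar) of the log2 difference between unloaded and loaded controls for sets of probe sets under the deposited scaling and 3 alternatives. The P450 median is 0.25 as deposited, 0.17 with quantile normalization, 0.01 with median centring and 0.34 with spike-in scaling.

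Lists set beside the P450s shifted by similar or larger amounts. Over all probe sets the median difference was 0.24, with 66.9% above 0. Liver transcripts other than P450s (103 probe sets, 58 genes) had a median difference of 0.47, with 84 above 0. Transcripts restricted to brain, pituitary, retina, pancreas or testis (127 probe sets, 80 genes) had 0.36, with 91 above 0. Partners, regulators and conjugating enzymes of the P450s (84 probe sets, 41 genes) had 0.45, with 67 above 0 and 0 past the limma test (3.83% of all probe sets passed, 0.389% higher). Por, the P450 reductase, read 1369 and 2067.7 on the loaded and 1438.6 and 2456 on the unloaded controls (0.16 ± 0.39, adjusted p = 0.895) on its probe set that was above background throughout. The largest difference in this list was that of Nat1, an acetyltransferase (2.00 ± 0.60, adjusted p = 0.144), and the lowest that of Gstp1, a glutathione transferase (-1.64 ± 0.65, adjusted p = 0.294). Among the liver transcripts 1 probe set passed, for Cps1, the carbamoyl phosphate synthetase of the urea cycle. It rose from 9.7 and 10.7 on the loaded to 83.4 and 157.9 on the unloaded controls, all below background (1.53 ± 0.29, adjusted p = 0.0185). Among dim probe sets alone the median was 0.32 for the liver transcripts (78.1% above 0). It was 0.45 for those restricted to the other tissues (73.4%) and 0.50 for the partners (86%). Over all dim probe sets it was 0.29 (70.5%), and for dim liver-type P450s 0.24 (80%).

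Between the control groups 2 P450 probe sets passed the limma test, both higher on the unloaded controls. They are 2.38% of the P450 probe sets, with 3.83% of all probe sets called in either direction and 0.389% called higher. At an unadjusted p under 0.05 there were 8 (9.52%, with 14.2%). Both called probe sets belong to the Cyp2c subfamily. Cyp2c23, an arachidonic acid epoxygenase known from kidney, read 555.4 and 481.1 on the loaded controls, 1007.2 and 789.6 with loaded healing, 1601.3 and 1560 on the unloaded controls and 724.6 and 567.4 with unloaded healing. Both unloaded controls lay above the other 6 arrays. The probe set rose 2.89-fold between the controls (1.53 ± 0.30, adjusted p = 0.0207, SE, limma with Benjamini-Hochberg adjustment). The other 2 probe sets of the gene did not pass (1.04 ± 0.53, adjusted p = 0.42 and 0.06 ± 0.60, adjusted p = 0.976).

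Cyp2c12, a steroid hydroxylase that rat liver makes mainly in females, was dim. The probe set that passed read 27.6 and 44.3 on the loaded controls, 18.2 and 30.6 with loaded healing, 218 and 176.7 on the unloaded controls and 53.7 and 67.7 with unloaded healing. No array reached the background bound, and the unloaded controls were the highest pair. The rise was 2.98-fold on the scale with the offset (1.57 ± 0.33, adjusted p = 0.0296). The other probe set of the gene had the opposite sign without passing, from 178.8 and 316.1 on the loaded to 72 and 121.6 on the unloaded controls (-1.02 ± 0.58, adjusted p = 0.482). With median centring neither call held (adjusted p = 0.0965 for Cyp2c23 and 0.0514 for Cyp2c12). Over all alternatives the adjusted p ran from 0.0119 to 0.129 for Cyp2c23 and from 0.00341 to 0.172 for Cyp2c12. Without the first or second loaded control, adjusted p was 0.0799 and 0.115 for Cyp2c23 and 0.172 and 0.0897 for Cyp2c12. Without the first or second unloaded control it was 0.129 and 0.122, and 0.118 and 0.073. The Cyp2c12 call was also lost without either loaded healing array (adjusted p = 0.0657 and 0.0637).

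**Figure D4:**
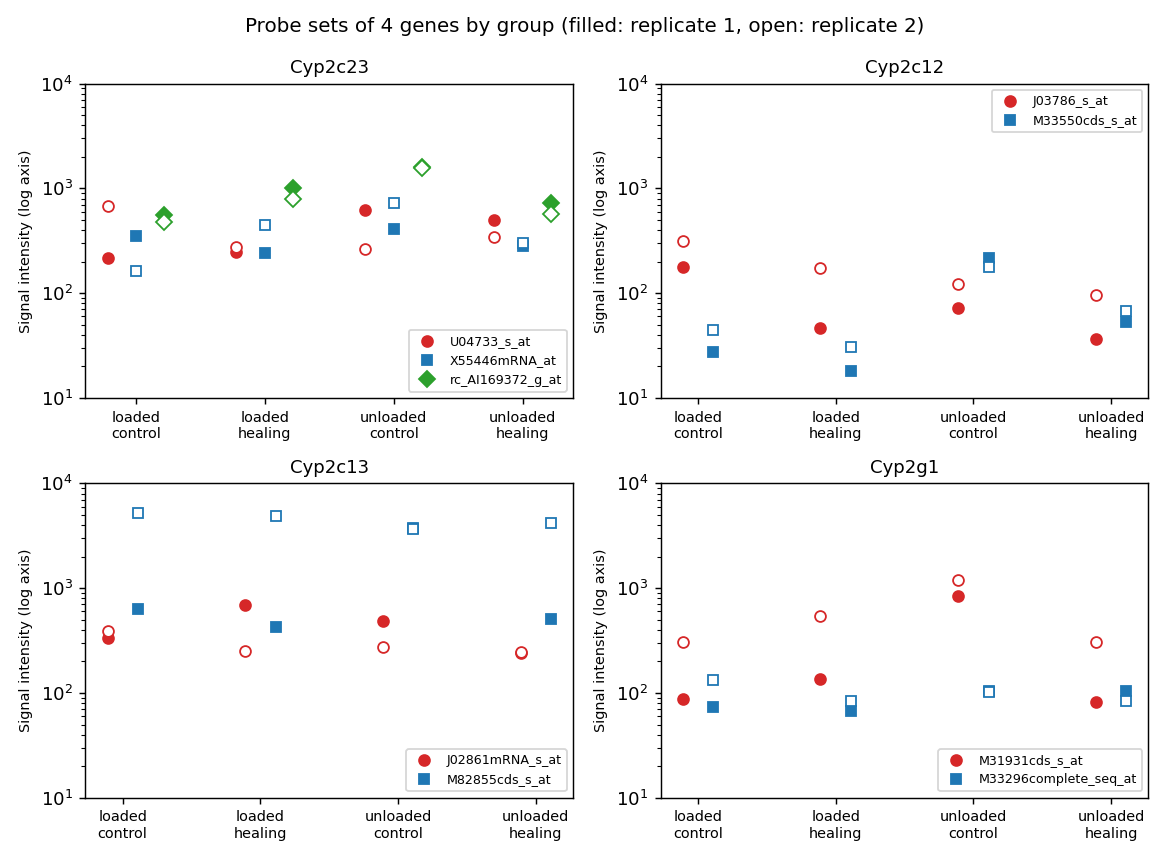
Signal intensity (log axis) of every probe set of Cyp2c23, Cyp2c12, Cyp2c13 and Cyp2g1 in the 4 groups, with a point per array and separate symbols for replicates 1 and 2. In Cyp2c23 and Cyp2c12 a single probe set places both unloaded controls above the other 6 arrays, and 1 probe set of Cyp2c13 is high on the second replicate of each group and low on the first, except on the unloaded controls.

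The largest differences that did not pass were higher ones of Cyp2g1, Cyp2j3 and Cyp4a1. Cyp2g1 read 88.5 and 308.9 on the loaded and 837.2 and 1190.3 on the unloaded controls (2.26 ± 0.76, adjusted p = 0.2), and its other probe set differed by 0.02. Cyp2j3 read 15.5 and 540.4 against 489.9 and 738.7 (1.77 ± 1.16, adjusted p = 0.543), so these groups overlapped, and its other 2 probe sets differed by 1.35 and 0.81. Cyp4a1, a fatty acid hydroxylase induced through PPAR alpha, read 133.2 and 198.1 against 663.7 and 588.9 (1.68 ± 0.72, adjusted p = 0.337), with -0.06 on the probe set that was above background throughout. The 663.7 and 588.9 both lay below the highest Bacillus control of their array. The lowest differences were those of Cyp2b3 (-1.61 ± 0.50, adjusted p = 0.164) and Cyp7a1 (-1.10 ± 0.52, adjusted p = 0.389). Next came the Cyp2c12 difference given above, Cyp1b1 (-0.99 ± 0.51, adjusted p = 0.425) and Cyp2d3 (-0.89 ± 0.49, adjusted p = 0.47). Other probe sets went the opposite way for Cyp2b3 (0.25 and 0.17), Cyp7a1 (0.81) and Cyp1b1 (1.25 and 1.51, with -0.21 on the remaining one). Of the 21 genes with several probe sets, 11 had every difference above 0, 1 (Cyp2a3) had every one below 0, and 9 had both signs.

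In healing ligaments no P450 passed the test against loaded controls or between the healing groups. For loaded healing against loaded controls limma called 0 P450 probe sets (0.801% of all), with 8 at an unadjusted p under 0.05 (9.52%, with 9.75% of all) and a median difference of -0.03, as over all probe sets. The 70 calls over all probe sets fell to 6 without the second loaded control. The lowest adjusted p was that of a Cyp2j3 probe set, which read 63.2 and 116.8 on the loaded controls and 312.7 and 452.4 with loaded healing (1.67 ± 0.54, adjusted p = 0.299). Cyp21a1, a steroid hydroxylase of the adrenal cortex, read 573.1 and 356.4 and 120.4 and 112.1 (-1.62 ± 0.54, adjusted p = 0.306). Neither of these probe sets overlapped between the groups. The other Cyp2j3 probe sets did, with differences of -0.23 and 0.01. Between unloaded and loaded healing limma called 0 (0.664% of all), with 2 at an unadjusted p under 0.05 (2.38%, with 9.37%) and median differences of 0.02 for P450s and 0.06 for all. The lowest adjusted p was that of Cyp27b1 (1.98 ± 0.84, adjusted p = 0.512). For unloaded healing against loaded controls it called 0 (0.0114% of all), with 4 at an unadjusted p under 0.05 (4.76%, with 5.56%) and medians of -0.08 and 0.02. With simulated differences between the controls, the model recovered 14% of those of 1 log2 unit, 56% of 2 units, 96% of 3 and 98% of 4. The simulation raised 50 probe sets of each size on the unloaded controls only. It drew normal noise with the moderated variances of the same fit, so recovery may be lower in the real data. Recovery was not estimated for the healing comparisons.

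With unloaded healing the P450s mostly read lower than on the unloaded controls. The median difference was -0.39 for P450s and -0.22 for all probe sets. Between replicates the P450 median had a standard deviation of 0.17 log2 units, which is not small beside the gap between these medians. Both unloaded healing arrays lay below both unloaded controls for 38 P450 probe sets (45.2%, with 32.8% of all) and above both for 6 (7.14%, with 15.2%). The limma test called 0 (4.12% of all), with 15 at an unadjusted p under 0.05 (17.9%, with 14.8%), 14 of them lower (7.94% of all were lower). This comparison shares the unloaded control arrays with the one between the controls. A Cyp2j3 probe set below background had the lowest adjusted p, at 189.5 and 96.4 on the unloaded controls and 6.3 and 26.7 with unloaded healing (-1.57 ± 0.37, adjusted p = 0.0552). Cyp2f4 read 718.2 and 643.3 on the loaded controls, 420.9 and 518.4 with loaded healing, 801.6 and 659.6 on the unloaded controls and 225.3 and 328.6 with unloaded healing (-1.28 ± 0.37, adjusted p = 0.114 against unloaded controls). Its unloaded healing arrays were the lowest pair of the 8.

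The effect of healing differed between unloaded and loaded rats for 1 P450 probe set (1.19%, with 2.81% of all called in either direction and 0.252% lower), and 8 had an unadjusted p under 0.05 (9.52%, with 10.5%). This was the Cyp2c23 probe set described above (-1.98 ± 0.42, adjusted p = 0.0425, limma). Healing ligaments differed from controls by 0.74 ± 0.30, adjusted p = 0.441 in loaded rats and -1.24 ± 0.30, adjusted p = 0.0579 in unloaded rats, and neither passed alone. The loaded controls had a sham operation and the unloaded ones did not, so this difference also holds the missing sham operation. The call was lost whichever of the 8 arrays was left out, with a difference of -2.15 to -1.81 and an adjusted p of 0.0718 to 0.161. It was also lost with median centring (adjusted p = 0.157) and without the intensity trend (adjusted p = 0.0909).

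Some P450 probe sets followed the replicate number in place of the group, a pattern noticed after the data were seen. In the 3 groups other than the unloaded controls, 12 P450 probe sets (14.3%, with 9.97% of all) read higher on every second replicate than on any first replicate, and 5 (5.95%, with 4.95%) showed the reverse. The median signal of the whole array had the same order. It was 238.7 and 280.1 on the loaded controls, 245.2 and 282.3 with loaded healing and 250.8 and 286.2 with unloaded healing. On the unloaded controls it was 313.6 and 315.9. The pattern is therefore not read as a trait of P450s. Cyp2c13, a steroid hydroxylase of male rat liver, read 631.4 and 5180.4 on the loaded controls, 427.3 and 4913.8 with loaded healing, 3759.8 and 3707.3 on the unloaded controls and 510.1 and 4156.7 with unloaded healing. The first arrays of those 3 groups were low, while their second arrays and both unloaded controls were high. The other Cyp2c13 probe set read 242.9 to 688.1 and did not split this way. Cyp2j3 read 15.5 and 540.4 on the loaded controls, 25.1 and 323.7 with loaded healing, 489.9 and 738.7 on the unloaded controls and 47.9 and 280.4 with unloaded healing, with the same order. In 10 of the 12 both unloaded controls lay above the first arrays of the 3 groups, as in 652 of the 871 probe sets of the whole array with this pattern. The labels do not say what the replicate number stands for.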

How the data were processed

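The authors deposited linear signal intensity for each probe set, scaled to a common 2% trimmed mean before deposit, as the values show. Which software or summary method was used is not given in the sources used here. The 8 sample columns were all used. Of the probe sets, 7018 have 1 symbol in the probe table, 308 several and 1473 none, and all 84 P450 entries matched RefSeq (GRCr8) by identifier.

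Values were put on the log2 scale after adding 45.8, their 10th percentile. Means of the 4 groups were fitted in limma 3.58.1 (R 4.3.3) with an intensity trend over 8740 non-control probe sets, with 4 residual and 4.84 prior degrees of freedom and no low-value filter, which would remove dim members. The p-values are two-sided, adjusted by Benjamini-Hochberg over all probe sets, with a threshold of 0.05. On data simulated with the moderated variances of the same fit, 3.65% of calls were false, which may be favourable to the model. Named were P450s above background in a group, those called, the 5 largest differences in each direction, and genes whose probe sets disagree. Members and lists were chosen with earlier results of these data known. Scalings, offsets, a filter, probe-set averaging, a replicate block and left-out arrays were tried as alternatives, and leaving out both unloaded controls was added after seeing the data. Signals of different probe sets are not comparable levels.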

Additional observations from a re-analysis of the deposited data

Results flagged for a closer look

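For 1 probe set of Cyp2c23 the effect of healing differed between unloaded and loaded rats in a direct test of that difference (limma, adjusted p = 0.0425). The call was lost with median centring, with averaged probe sets, without the intensity trend and whichever array was left out. The difference was -1.98 log2 units, from 0.74 in loaded rats to -1.24 in unloaded rats, and it also holds the sham operation that only the loaded controls had. The other 2 probe sets of the gene read -1.20 and 0.54 and did not pass.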

How the results depend on the processing

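For P450s, 0 calls in loaded healing against loaded controls, between the healing groups and in unloaded healing against loaded controls held under every alternative run. The 2 calls between controls became 4 with quantile normalization, 1 with a 40% filter and 0 with median centring, with averaged probe sets or with only those groups fitted, and 0 to 2 without 1 array. Unloaded healing against unloaded controls went from 0 calls to 5 with quantile normalization, 2 with an offset 4 times as large or a floor, 1 with spike-in scaling or the filter, and 0 to 1 without 1 array. The interaction call went from 1 to 0 with median centring, averaged probe sets or no intensity trend, and 0 to 0 without 1 array. A replicate block gave 3 calls between controls and 1 in unloaded healing against unloaded controls; replicate differences correlated at 0.13 to 0.16 among loaded control, loaded healing and unloaded healing, and at 0.01 to 0.02 between each of these and the unloaded controls, so the numbers were not taken as pairs over all 4 groups. The P450 median between controls went from 0.25 to 0.01 with median centring and 0.15 to 0.38 without 1 array. Spike-in scaling moved it from -0.03 to 0.25 in loaded healing and from 0.02 to -0.40 between the healing groups. For unloaded healing against unloaded controls it went from -0.39 to -0.19 with median centring and -0.56 with spike-in scaling. Above background on all 8 arrays were 26 probe sets at the 40th percentile, 11 at the 75th and 17 at the highest Bacillus control, and on none 14, 46 and 23. Over all probe sets, the 335 calls between controls (34 higher, 301 lower) became 512 with quantile normalization (170 and 342), and the 360 in unloaded healing against unloaded controls (309 and 51) became 562 (362 and 200), and the 246 interaction calls (224 and 22) became 296 (235 and 61). The 1 call in unloaded healing against loaded controls became 0 to 4. Spike-in scaling turned the split in loaded healing from 37 higher and 33 lower to 63 and 13, and between the healing groups from 31 and 27 to 10 and 71. The 70 calls in loaded healing became 36 with a floor, 19 without the trend and 106 with the larger offset or the filter, and the 58 between the healing groups became 38, 35, 14 and 37 with median centring, a floor, no trend and only those groups, and 85 with the filter. Without 1 array the first ran from 6 (without loaded control 2) to 65, with 13 without loaded healing 1 and 21 without loaded control 1 or loaded healing 2. The second ran from 11 (without loaded healing 1) to 53, with 14 and 26 without unloaded healing 2 and 1, 15 without loaded healing 2 and 34 without either loaded control. The cause of these changes was not tested. Signal near background limits the dim probe sets most.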
